A study of Mus musculus with 39 samples.

Results

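Mki67, Top2a, Pcna and Tyms, 4 genes whose products serve DNA replication and cell division, were described in single cells of the Krt19 lineage of adult mouse liver. They were found by their symbols in the deposited expression matrix, where they are 4 of 10061 symbols, and transcripts of the same symbol were summed. The matrix holds 39 cells, each sequenced as its own library. The mice carried Krt19CreERT, a Cre recombinase that tamoxifen activates, driven by a keratin gene of bile duct epithelium, and the reporter Rosa26CAG-EGFP. Green cells were sorted from the liver, and single cells were then picked into lysis buffer. A green cell may have expressed Krt19 itself or descend from one that did, so the label does not fix the type of a cell. All 39 cells form 1 group in the labels, with the same genotype and tissue, and no animal, age, treatment dose or time was named. Cells of 1 group are not replicates, so the values below have no replicate error and no test was made between cells.

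A dividing cell first copies its DNA in S phase and then separates the copies in mitosis. Pcna encodes the sliding clamp that holds DNA polymerases on the replicating strand and that also serves in DNA repair. Tyms encodes thymidylate synthase, which makes the thymidine nucleotide needed for new DNA. Top2a encodes topoisomerase II alpha, which untangles sister chromosomes before they part, and Mki67 encodes the Ki-67 protein, which coats mitotic chromosomes and is the common marker of cycling cells in histology. In the adult liver most hepatocytes and bile duct cells are at rest and enter the cycle after injury.

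The deposited values were taken back to a linear scale, called CPM here, a count per 1000000 reads, on which 1 CPM stood for a median of 12.0 reads (range 3.67 to 41.5 over the 37 cells where this could be read from the values). A level of 1 CPM was used for presence and 100 CPM for a high level. Cells reached 100 CPM for between 581 and 1474 genes, with a median of 960. Housekeeping genes also had zeros in some cells, so a gene with no value is said to be listed at 0. Cells were grouped by cell type markers, none of which is a cell cycle gene. Group 1 held 22 cells led by Spp1 and Tm4sf4 and is called cholangiocyte-like. Group 2 held 7 cells with markers of both mesothelium and fibroblasts, led by Dcn and Col1a2, and has no cell type name here. Group 3 held 6 hepatocyte-like cells, led by major urinary protein genes, Apoa1 and Serpina3k, and group 4 held 4 cells with blood cell markers, led by Elane and Mpo.

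The promoters of the 4 genes are shown because Mki67 and Top2a occurred together in these cells while Pcna and Tyms did not follow them closely. The 250 bases before the transcription start given for each gene are taken from RefSeq on GRCm38.p6, 5′ to 3′ along the gene, and all 4 genes lie on the minus strand. Capitals mark, on either strand, the CCAAT box (CCAAT, or ATTGG on the other strand), the cell cycle genes homology region of G2 and M phase genes (TTTGAA or TTCGAA) and E2F sites (TTCCCGC or TTGGCGC). The counts below include overlaps between motifs.
Mki67, chr7:135716380-135716629: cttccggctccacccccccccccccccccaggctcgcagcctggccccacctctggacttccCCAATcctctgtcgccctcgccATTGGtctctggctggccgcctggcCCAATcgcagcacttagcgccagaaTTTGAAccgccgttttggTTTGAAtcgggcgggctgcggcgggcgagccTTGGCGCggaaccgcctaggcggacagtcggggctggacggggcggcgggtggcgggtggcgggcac
Top2a, chr11:99024190-99024439: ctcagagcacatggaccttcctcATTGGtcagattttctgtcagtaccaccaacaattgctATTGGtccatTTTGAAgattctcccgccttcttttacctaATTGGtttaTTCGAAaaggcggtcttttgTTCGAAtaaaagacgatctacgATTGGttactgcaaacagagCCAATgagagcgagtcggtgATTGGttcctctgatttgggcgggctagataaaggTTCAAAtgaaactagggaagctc
Pcna, chr2:132253181-132253430: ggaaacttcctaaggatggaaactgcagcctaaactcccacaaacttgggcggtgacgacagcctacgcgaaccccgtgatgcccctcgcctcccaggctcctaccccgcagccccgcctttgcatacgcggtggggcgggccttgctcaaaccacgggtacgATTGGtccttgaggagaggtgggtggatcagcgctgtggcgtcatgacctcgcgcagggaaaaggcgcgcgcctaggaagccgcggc
Tyms, chr5:30073626-30073875: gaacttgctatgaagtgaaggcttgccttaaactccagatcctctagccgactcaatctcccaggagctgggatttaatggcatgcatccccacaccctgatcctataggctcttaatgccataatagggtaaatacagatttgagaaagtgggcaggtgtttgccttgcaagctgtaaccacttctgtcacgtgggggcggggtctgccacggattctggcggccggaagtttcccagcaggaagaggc
The Top2a window held 6 CCAAT boxes and 4 homology region matches, and the Mki67 window held 3 and 2, with 1 E2F match. The Pcna window held 1 CCAAT box and neither of the others. None of these motifs was found in the Tyms window, which says only that these letters are not in it. Among 32851 mouse promoters of this length 33.8% held a CCAAT box, 17.1% a homology region match, 6.02% both and 5.62% an E2F match. At least 5 CCAAT boxes, as in Top2a, were found in 0.213%. A match of letters is not a binding site.

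The 4 genes fell into a sparse pair and a widespread pair. Mki67 was at 1 CPM or more in 10 of 39 cells (exact 95% interval 13.0% to 42.1%, for the choice of cells alone) and Top2a in 7 (7.54% to 33.5%). Pcna was there in 20 cells (34.8% to 67.6%) and Tyms in 33 (69.5% to 94.1%). As background, 47.8% of all 10061 genes were at 1 CPM in as many cells as Mki67 or more, 67.7% in as many as Top2a, 16.3% in as many as Pcna and 3.68% in as many as Tyms. Against that background Mki67 and Top2a were of ordinary or narrow spread and Tyms was among the widespread genes.

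At 100 CPM the order of the genes changed. Pcna reached that level in 11 cells, Tyms in 10, Mki67 in 6 and Top2a in 4. Of all genes, 7.35%, 8.85%, 20.8% and 35.9% did so in as many cells or more, in the same order. The exact intervals of the shares were 15.0% to 44.9% for Pcna and 2.87% to 24.2% for Top2a. Both genes were counted in the same 39 cells, so the overlap of these intervals does not decide whether the shares differ. Pcna was at 100 CPM without Top2a in 9 cells and Top2a without Pcna in 2, and the difference was not tested.

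Pcna, the clamp, was highest in cell 25 at 2641 CPM, followed by cell 14 at 1235 CPM and cell 8 at 1175 CPM. Cells 28 and 29 had 627 and 624 CPM, next to equal, and cells 36, 32, 26 and 20 had 406, 288, 269 and 254 CPM. Cells 18 and 35, at 123 and 103 CPM, closed the high range. Of these 11 cells 3 were in group 4, 2 in group 2 and 6 among the cholangiocyte-like cells. Below them Pcna dropped steeply, to 27.0 CPM in cell 33 and 9.78 CPM in cell 6, with a median over all cells of 1.72 CPM, and it was listed at 0 in 6 cells. The 5 highest cells held 80.3% of its summed level.

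Tyms, the thymidylate synthase, had its largest value in 1 cholangiocyte-like cell, cell 17, with 6896 CPM. That cell held 62.2% of the level summed over all cells, and it had no Mki67 or Top2a and 0.147 CPM of Pcna, 1 read. The next cells were cell 8 at 1183 CPM, cell 10 at 524 CPM, cell 5 at 401 CPM, cell 32 at 348 CPM, cell 9 at 228 CPM and cell 36 at 211 CPM. Tyms was the member with the most even background, since 27 cells were at 10 CPM or more and the median was 38.1 CPM. It was at 0.261 CPM in cell 1 and 9.82 CPM in cell 38 and listed at 0 in the other 4 hepatocyte-like cells.

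Top2a, the decatenating enzyme, was high in cell 6 at 1148 CPM, cell 8 at 1103 CPM, cell 36 at 509 CPM and cell 10 at 243 CPM. Cell 32 stood just under the threshold at 85.7 CPM, and cells 33 and 29 were at 1.63 and 1.22 CPM. These 7 cells were all the cells at 1 CPM, and no cholangiocyte-like or hepatocyte-like cell was among them. In 10 further cells Top2a had 1 to 9 reads, under 1 CPM, and in 22 it was listed at 0. The top 5 cells held 99.8% of its summed level, the most concentrated of the 4.

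Mki67, the marker of cycling cells, was high in the same 4 cells and in 2 more. It had 1768 CPM in cell 6, 1270 CPM in cell 36, 989 CPM in cell 8, 933 CPM in cell 33, 486 CPM in cell 10 and 220 CPM in cell 32. Cell 30, a cholangiocyte-like cell, came next at 74.1 CPM, with 12.4 CPM in cell 29, 1.79 CPM in cell 35 and 1.12 CPM in cell 34. The gap between cells 32 and 30 coincides with the threshold, so the same 6 cells are found at any threshold between 74.1 and 220 CPM. Another 11 cells had 1 to 12 reads of Mki67, under 1 CPM, and 18 were listed at 0.

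**Figure D1:**
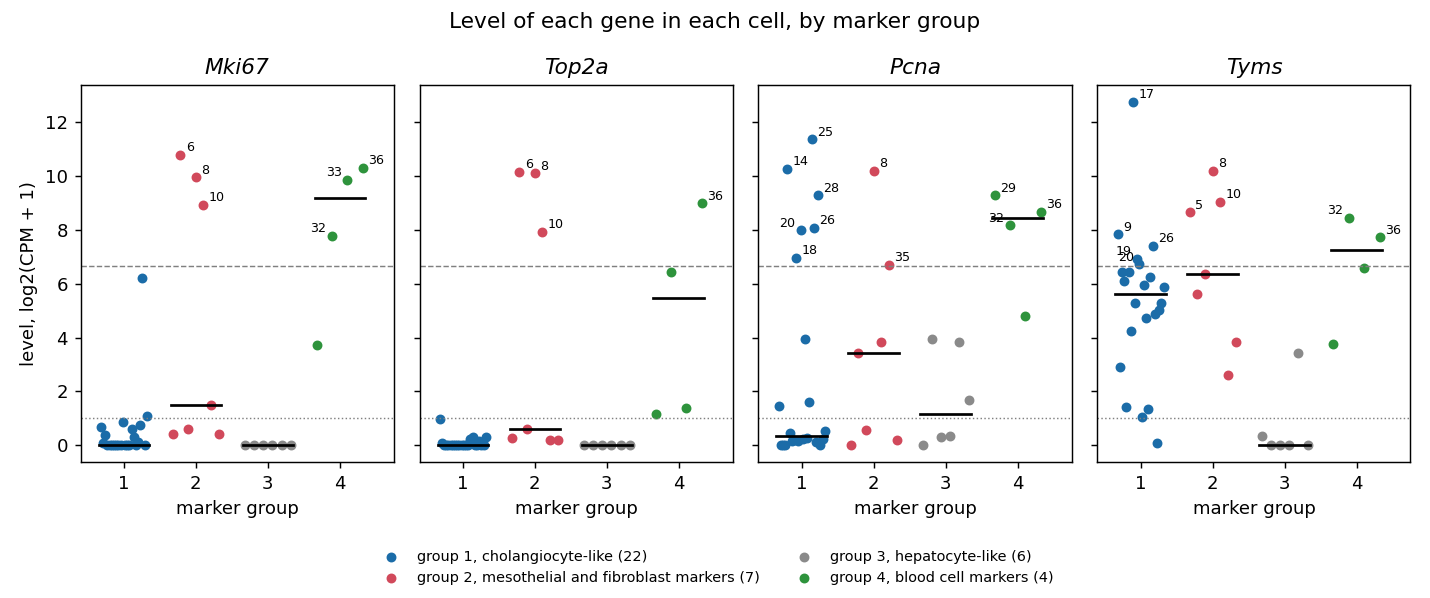
Level of each gene, as log2(CPM + 1), in each of 39 cells by marker group; points are cells, black bars are group medians, the dashed line is 100 CPM and the dotted line 1 CPM, and cells at 100 CPM or more carry their number. High Mki67 and Top2a lie in groups 2 and 4 only, while high Pcna and Tyms also lie in group 1.

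Levels of different genes can be set beside each other only per length, for which a GENCODE M21 transcript matched to a RefSeq transcript of each gene was used. For Tyms, whose match may be to its coding or its non-coding transcript, the summed level was divided by that length. In cell 8 the level per kilobase was 774 CPM for Pcna, 374 CPM for Tyms, 211 CPM for Top2a and 98.3 CPM for Mki67. Cell 36 had the order Pcna, Mki67, Top2a, Tyms, with 268, 126, 97.5 and 66.8 CPM per kilobase. In cell 6 the order was turned round, with 220 CPM per kilobase for Top2a and 176 for Mki67 against 15.1 for Tyms and 6.44 for Pcna. Cell 29 showed the opposite extreme, with 411 CPM per kilobase for Pcna, 3.99 for Tyms, 1.23 for Mki67 and 0.233 for Top2a. With these lengths the order of the 4 genes differed between these 4 cells, and the place of Tyms in it depends on the length used.

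Few cells held all 4 genes. At 1 CPM, 7 cells had the 4 genes together (cells 6, 8, 10, 29, 32, 33 and 36), 1 cell had 3, 11 cells had 2, 17 had 1 and 3 had none. The 7 cells with all 4 are the same 7 that had Top2a. At 100 CPM, cells 8 and 36 had all 4 genes, cells 10 and 32 had 3, and cells 6, 20 and 26 had 2. A further 11 cells had 1 gene at that level and 21 had none.

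The pairs differed in how often they met. Top2a never reached 100 CPM without Mki67, but only 4 cells had Top2a at that level. The exact interval for 0 of all 39 cells allows a share of up to 9.03%. It does not bound the share among those 4 cells, which are too few for that. Mki67 reached 100 CPM without Top2a in cells 32 and 33. Pcna reached 100 CPM without Mki67 in 8 of its 11 cells, 6 of them cholangiocyte-like, and Tyms did so in 6 of its 10 cells. Pcna and Tyms met at that level in 5 cells, namely cells 8, 20, 26, 32 and 36. In cells 20, 26 and 32 the coding transcript of Tyms alone was below it, at 55.0, 89.0 and 83.8 CPM.

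Across the 39 cells, the correlation of log2(CPM + 1) was 0.88 between Mki67 and Top2a, the highest of Mki67 with any of 9645 other genes at 1 CPM in at least 4 cells. It was 0.37 between Mki67 and Pcna, 0.39 between Mki67 and Tyms, 0.38 between Top2a and Pcna and 0.41 between Top2a and Tyms. Between Pcna and Tyms it was 0.11, which put Tyms at rank 3099 of 9645 for Pcna. These coefficients describe 39 cells that share sort and processing and differ in depth, and for Top2a they rest on the 7 cells where it was present.

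**Figure D2:**
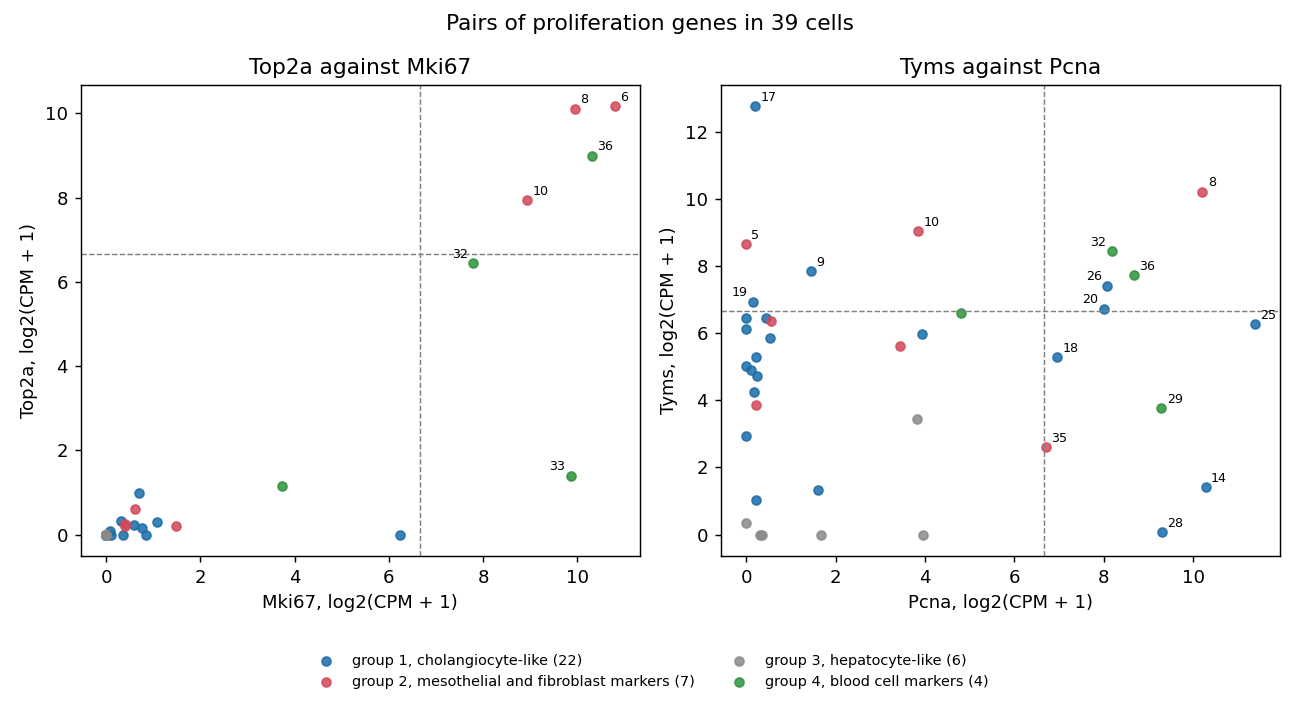
Top2a against Mki67 (left) and Tyms against Pcna (right), each as log2(CPM + 1), in 39 cells coloured by marker group; dashed lines mark 100 CPM and cells at that level for either gene carry their number. In the left plot cells 6, 8, 10 and 36 lie above both lines and cells 32 and 33 are high for Mki67 alone, while in the right plot most high cells are high for 1 gene.

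By marker group, no cholangiocyte-like cell reached 100 CPM of Mki67 or Top2a (0 of 22, up to 15.4% by the exact interval), while 6 did so for Pcna and 5 for Tyms. None of the 6 hepatocyte-like cells reached it for any of the 4 genes (up to 45.9%). In group 2 the numbers of 7 cells were 3 for Mki67, 3 for Top2a, 2 for Pcna and 3 for Tyms. In group 4 the numbers of 4 cells were 3, 1, 3 and 2 in the same order. By the coding transcript of Tyms alone, cells 19, 20 and 26 of group 1 and cell 32 of group 4 were below 100 CPM.

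The mean log2(CPM + 1) of Mki67 was 6.68 higher in group 4 than in all other cells, and those of Pcna and Top2a were 4.93 and 3.59 higher. These 3 of 4 genes passed a difference of 2, which 16.6% of all genes did in group 4. Tyms, at 1.92 higher, did not. The SD between the 4 cells was 3.00 for Mki67, 2.00 for Pcna and 3.86 for Top2a, so the Top2a difference was smaller than the spread within the group. With cells grouped by average linkage, 2 of the 4 cells stayed together in a cluster of 5, where the difference was 5.31 for Pcna, 0.81 for Mki67, 0.44 for Top2a and -1.07 for Tyms, so that of the 3 genes only Pcna stayed past 2. With a pseudocount of 10 the Top2a difference was 1.80.

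Group 2 was higher than the other cells by 3.59 for Top2a, 3.31 for Mki67 and 2.08 for Tyms, which makes 3 of 4 genes past 2 where 11.4% of all genes were. The SD within the group, 4.91, 4.94 and 2.82, was larger than each of these differences. With a pseudocount of 10 the Tyms difference was 1.40. By average linkage 5 of the 7 cells stayed together, in a cluster of 9, and all 3 differences stayed past 2. Cells 6, 8 and 10 were high and cells 5, 7, 35 and 37 had at most 1.79 CPM of Mki67 and 0.525 CPM of Top2a. The group is thus split for both genes. None of the 4 was lower by 2 in group 2 or in group 4, as 2.54% and 5.27% of all genes were.

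In the cholangiocyte-like cells Mki67 and Top2a were lower by 3.28 and 2.70, 2 of 4 genes past 2 where 8.5% of all genes were. The Top2a difference was -1.62 with a pseudocount of 10 and -1.71 with average linkage, by which 10 of the 22 cells stayed together. Pcna was lower by 1.01 and Tyms higher by 0.72 in these cells. None of the 4 was higher by 2, as 2.8% of all genes were. In the hepatocyte-like cells Tyms was lower by 5.06 and Mki67 by 2.28, 2 of 4 genes past 2 where 7.54% of all genes were, and with a pseudocount of 10 the Mki67 difference was -1.31. Both Mki67 and Top2a were listed at 0 in all 6 hepatocyte-like cells, whose depth was the lowest of the groups, with a median of 4.42 reads per CPM over the cells where it is known.

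The cells with high members were of different kinds by their markers. Cells 6, 8 and 10 had 5, 11 and 7 of 12 mesothelial markers and 7 of 14 fibroblast markers each at 100 CPM, with Dcn between 2361 and 4170 CPM, and all 3 held Krt19, at 96.3, 127 and 457 CPM. Cells 29, 32 and 36 had 8, 9 and 5 of 10 markers of granulocytes and their precursors, and Elane, the neutrophil elastase of such precursors, was at 43187 CPM in cell 29 and 25577 CPM in cell 36. Cell 33 had none of those at 100 CPM and 9 of 10 markers of macrophages and Kupffer cells. In cells 29, 32, 33 and 36 the level of Krt19 was at most 0.656 CPM, and mesothelial and fibroblast markers were at 100 CPM in none.

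Depth and gene number were high in the cells high in Top2a. Cells 6, 8, 10, 32 and 36, the 5 cells highest in Top2a, had more genes at 100 CPM than any other cell, 1391 to 1474, and ranked 1, 4, 3, 2 and 6 of 37 in reads per CPM. The part of depth and gene number in the level of the members was not tested. Cell 33, with 933 CPM of Mki67, ranked 18 in genes at 100 CPM and 27 in reads per CPM. Among the cells with the most Pcna or Tyms the ranks were mixed. Cell 8, with 1175 CPM of Pcna and 1183 CPM of Tyms, ranked 4 in genes at 100 CPM and 4 in reads per CPM. Cell 10, with 524 CPM of Tyms, ranked 2 and 3 in the same order. Cells 17, 25 and 14 ranked lower in both. Cell 17, first in Tyms, ranked 39 in genes at 100 CPM and 29 in reads per CPM, cell 25, first in Pcna, ranked 13 and 18, and cell 14, second in Pcna, ranked 36 and 13.

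Other genes of the cell cycle were counted per cell in lists by function. Of 36 measured genes of mitosis and the spindle, cell 6 had 21 at 100 CPM, cell 10 had 17, cell 32 had 15, cell 36 had 13 and cell 8 had 4. In these cells 13.8% to 14.7% of all genes were at that level. No cholangiocyte-like cell had more than 2 of the 36, and cell 33 had none. In all 6 cells had 3 or more, and the last of them was cell 29 with 3.

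Cell 6 paired the highest Mki67 and Top2a with mitotic genes. It had Cenpf, of the kinetochore, at 2210 CPM, Prc1, of the central spindle, at 1125 CPM, the mitotic kinase gene Plk1 at 337 CPM and Cdk1, the kinase that starts mitosis, at 425 CPM. Of 14 genes of replication licensing and origin firing 2, Gins2 and Gins4, were at 100 CPM in this cell. That is 14.3% of the list, near the 14.4% of all genes at that level there. Mcm2 and Cdc6 of this list were listed at 0, as was Rrm2 of the deoxynucleotide supply list. Pcna and Tyms stood low there, as given above.

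Cell 8 had the reverse makeup beside nearly the same Top2a. It had 9 of the 14 licensing genes at 100 CPM, with Mcm6, of the replicative helicase, at 1239 CPM, and 7 of 19 genes of the replication fork. Of the 12 genes of thymidylate and deoxynucleotide supply it had 6, among them Tyms. Cdk1 was at 0.493 CPM, and Cenpf, Plk1 and Ube2c were listed at 0. Top2a was at 1103 CPM in cell 8 and 1148 CPM in cell 6, whereas Pcna was at 1175 CPM in the first and 9.78 CPM in the second.

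Cells 10 and 36 held more of both kinds of gene than cell 6 did of licensing and fork genes, while cell 32 did not. Cell 10 had 17 mitotic genes, 3 licensing genes and 4 fork genes, with Cdk1 at 356 CPM and Mcm6 at 847 CPM. Cell 32 had 15 mitotic genes but 2 licensing and 2 fork genes, the same numbers of the latter as cell 6, and 13.8% of all its genes were at that level. In cell 32 Ube2c, of the anaphase ubiquitin machinery, was at 619 CPM and Fen1, the flap endonuclease of the replication fork, at 676 CPM. Cell 36 had 13 mitotic genes, 5 licensing genes and 6 fork genes, with Rrm2, of ribonucleotide reductase, at 1169 CPM. Cells 36 and 8 were the only ones with all 4 members at 100 CPM.

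Cells 29 and 33 held all 4 members at 1 CPM but only 1 at 100 CPM. Cell 30 had none at 100 CPM, with Mki67 at 74.1 CPM and Tyms at 31.7 CPM. Cell 29, high for Pcna, had 3 licensing genes, 3 fork genes and 3 mitotic genes at 100 CPM where 11.3% of all genes were, with Mcm6 at 1117 CPM. Cell 33, high for Mki67, had Tk1, the thymidine kinase of the salvage pathway, at 1090 CPM beside 1 licensing gene, 2 fork genes and 0 mitotic genes, where 10.3% of all genes were. Cell 30, with the highest Mki67 of group 1, carried 11 of 30 hepatocyte markers at 100 CPM beside 6 of 21 cholangiocyte markers. It had 1 licensing gene, Cdc6, and no fork or mitotic gene at that level, where 11.0% of all genes were, and Top2a and Pcna were listed at 0.

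The cholangiocyte-like cells with high Pcna or Tyms had at most 1 of 14 licensing genes, 2 of 19 fork genes and 2 of 36 mitotic genes at 100 CPM. In these cells 5.77% to 11.1% of all genes were at that level. The highest fork count, 10.5% of the list in cells 18 and 28, was near their shares of 9.0% and 9.33%. For licensing, cell 9 had 7.14% of the list against 7.99% of all genes. Cell 25, with the highest Pcna, had Mcm6 as its licensing gene, no fork gene and no mitotic gene, where 11.1% of all genes were at 100 CPM. Cell 17, with the highest Tyms, had 1 fork gene, Rfc1, and none of licensing or mitosis, where 5.77% of all genes were. Cell 28 had Lig1 and Pold3 of the fork and Cdk1 and Cks1b of mitosis at 100 CPM, where 9.33% of all genes were, beside 627 CPM of Pcna. This cell had 10 of 30 hepatocyte markers and 7 of 21 cholangiocyte markers at 100 CPM, and in group 1 as a whole between 0 and 13 hepatocyte markers were at that level. Other lists were better filled in some of these cells, but as much so in some group 1 cells with no member at 100 CPM. Cell 9, with 228 CPM of Tyms, had 4 of 18 chromosome structure genes at 100 CPM, where 7.99% of all genes were. Cells 18 and 20 had 3 of 15 genes of G1 and S control, namely Ccnd1, Ccnd2 and Myc, where 9.0% and 11.1% of all genes were. Among group 1 cells with no member at 100 CPM, cell 12 had 4 of the 18 chromosome structure genes, where 11.7% of all genes were. Cells 16 and 31 had 4 of the 15 genes of G1 and S control, where 6.33% and 10.9% of all genes were.

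**Figure D3:**
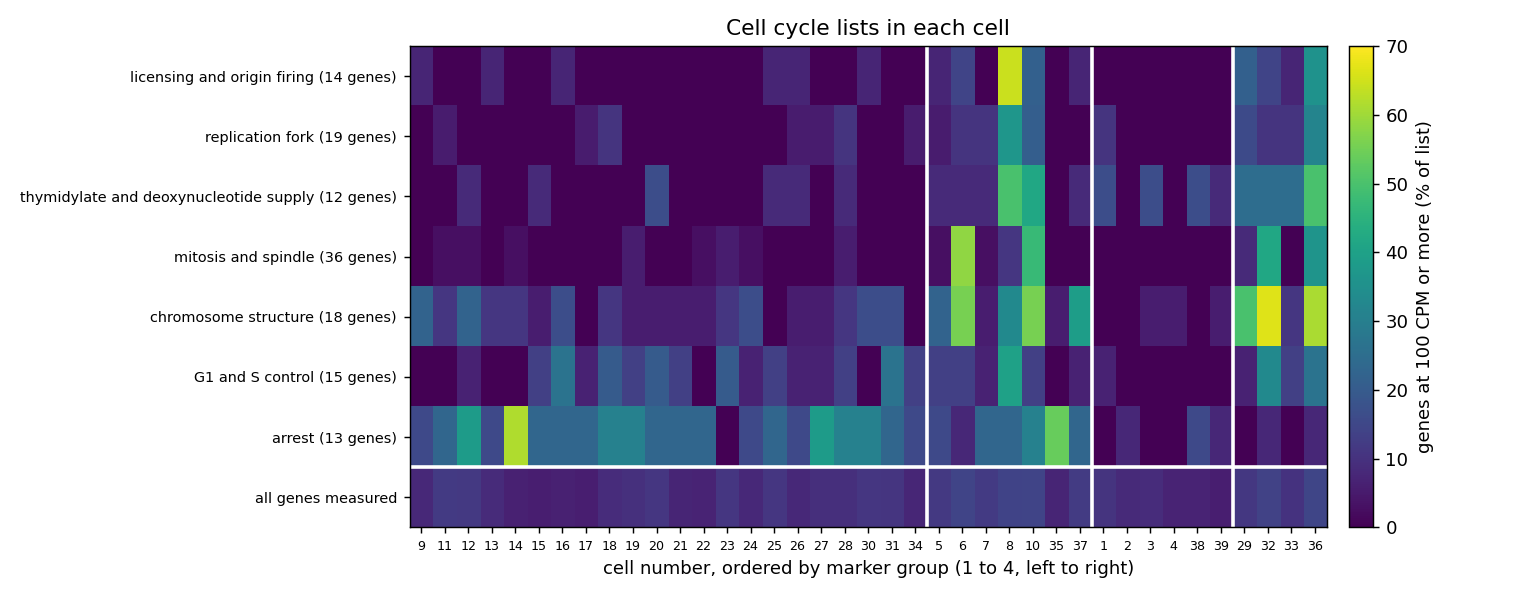
Share of each cell cycle list at 100 CPM or more (colour, % of the measured genes of the list) in each of 39 cells, ordered by marker group with white lines between groups; the bottom row is the share among all 10061 genes. Cells 6, 8, 10, 32 and 36 stand out in groups 2 and 4, with mitosis brightest in cell 6 and licensing brightest in cell 8.

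Of 13 genes that restrain the cycle, cells 6, 32 and 36 had 1 each at 100 CPM, cell 8 had 3 and cell 10 had 4, against a median of 3 over all cells. Btg2, which slows proliferation and responds to stress, was at 1109 CPM in cell 10, 207 CPM in cell 8, 90.9 CPM in cell 6 and 8.97 CPM in cell 36, against a median of 441 CPM over all cells. Btg1, of the same family, was at 142 CPM in cell 10, 91.0 CPM in cell 32, 70.9 CPM in cell 36 and 0.934 CPM in cell 8. Cdkn1a, encoding the cyclin-dependent kinase inhibitor p21, was at 144 CPM in cell 10 and 18.1 CPM in cell 32 and listed at 0 in cells 6 and 8. Cell 14, second in Pcna, had 8 of the 13 arrest genes at 100 CPM, the most of any cell, where 6.3% of all genes were at that level.

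Of the other genes of G1 and S control, Ccnd1, encoding cyclin D1, was at 100 CPM in 12 cells, 10 of them cholangiocyte-like, and reached 5075 CPM in cell 25, the cell with the most Pcna. Myc was at 100 CPM in 12 cells, 9 of them cholangiocyte-like. Cdk4, the kinase partner of cyclin D, was highest in cell 8 at 1783 CPM. Among the chromosome genes, H2afz, a histone variant, was between 1913 and 3971 CPM in cells 6, 8, 10, 29, 32 and 36 and at 21.7 CPM in cell 33, against a median of 4.29 CPM. It was not confined to those cells, since it was at 100 CPM in 13 cells. Among them were cells 7 and 37 of group 2 and the hepatocyte-like cells 3 and 4, with no member at that level.

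The genes most like Top2a over the 39 cells were Pold1, the catalytic subunit of DNA polymerase delta, with a correlation of 0.98, Kif22, a chromosome-borne kinesin, with 0.97, and Ckap2l, of the spindle, with 0.97. Next came 2810417H13Rik, Reep4, Cdca8, Zfp131, Mki67 and Anln, with coefficients from 0.95 to 0.87. The 10 genes most like Mki67 began with Top2a itself. Then followed Kif22, Pold1, 2810417H13Rik, Cdca8, Ckap2l, Zfp131 and Reep4, all also among the 10 genes most like Top2a. Rnf26 and Mms22l closed the list, whose coefficients ran from 0.88 to 0.80. By rank correlation 3 of the 10 stayed for each of the 2 genes.

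For Pcna the closest gene was Rcc2, a regulator of chromosome condensation, at 0.61, followed by Syne1, Siva1, Ankrd12, Parl, Nup153, Nab1, Afap1, Polr2j and Ccdc124 down to 0.56. None of these 10 genes is in the cell cycle lists. For Tyms the closest was Pot1b, of telomeres, at 0.62, followed by Lars2, Mbp, Fhl1, Rn45s, Zfp488, Zak, Mad2l1 and Elf1 down to 0.54. Among these Mad2l1, of the spindle checkpoint, is in the cell cycle lists. The coefficient of Tyms with Lars2 went from 0.60 to 0.00637 and that with Rn45s, a ribosomal RNA precursor, from 0.56 to -0.0741 when the hepatocyte-like cells were left out. Rn45s made up at most 1.22% of the summed level of those 6 cells and at least 8.42% in the other cells, and Lars2 was at 100 CPM in every cell but those 6.

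The level of Tyms was the sum of a coding and a non-coding transcript, whose reads overlap, so their split is uncertain. Of the 33 cells at 1 CPM, 23 had 46.2% to 49.8% of the sum on the non-coding transcript, an even split, with a median summed level of 47.7 CPM and a highest of 170 CPM. In 8 cells the non-coding share was at most 0.476%, and their median was 314 CPM. These 8 were cells 5, 8, 9, 10, 17, 31, 36 and 38. Cell 14 had a share of 16.7%, and cell 32 had 75.9%, with 264 CPM on the non-coding and 83.8 CPM on the coding transcript.

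The coding transcript alone reached 100 CPM in 6 cells, 5, 8, 9, 10, 17 and 36, in place of 10 for the sum. The evenly split cells included 17 of the 22 cholangiocyte-like cells, so the widespread moderate Tyms level in that group is of the kind whose reads were divided between the transcripts. Which molecule those reads came from was not tested. Tyms-ps, a processed copy of the gene, was at 1 CPM in 6 cells with a highest level of 6.96 CPM, in cell 28, where Tyms itself was at 0.0484 CPM. Mki67, Top2a and Pcna each had a single transcript in the matrix, and reads from processed copies of Pcna were not analysed here.

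**Figure D4:**
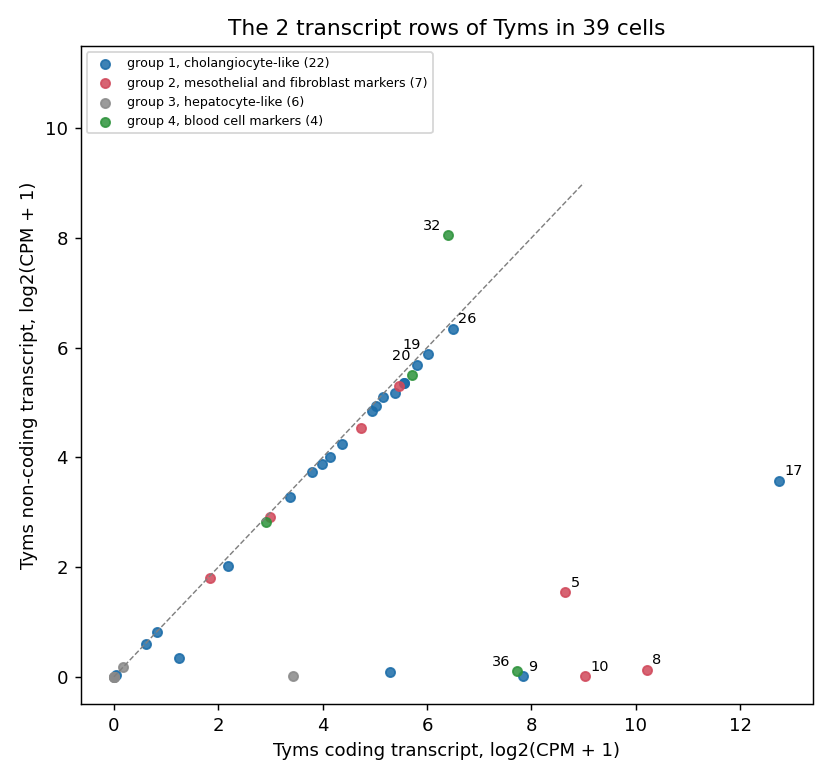
Non-coding against coding transcript of Tyms, each as log2(CPM + 1), in 39 cells coloured by marker group; the dashed line marks equal levels and cells with a summed level of 100 CPM or more carry their number. Most cells lie just under the line, while cells 5, 8, 9, 10, 17 and 36 lie near the bottom right, with almost all of the level on the coding transcript.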

How the data were processed

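Single-cell RNA-seq libraries of 39 cells were used. The authors deposited values on a log2 scale per RefSeq transcript, and per the submitters' processing notes Bowtie 0.12.9, eXpress 1.5.1, edgeR and the build mm9 were used, with order and settings not given. The lowest log2 value, -2.58, was taken as no reads, and its linear value, 0.167, was subtracted from 2 raised to each value. The linear unit is called CPM here; this scale is inferred from the values. The 13568 transcripts were summed to 10061 symbols, with no filter on genes or cells and no doublet caller. The worth of 1 read was taken as the most frequent low value of a cell, giving 2197346 to 36685947 reads per cell (median 11418636) in 37 cells, while the depth of cells 38 and 39 is unknown. Intervals are exact Clopper-Pearson intervals and cover counting of cells only. No molecular identifiers were given, so reads do not count molecules.

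Cells were grouped by Ward clustering of the mean log2(CPM + 1) of 9 marker lists with at least 3 measured genes (k from 2 to 6, at least 3 cells, best silhouette 0.591). Likeness is Pearson's correlation over 39 cells among genes at 1 CPM in at least 4 cells. Named genes were the 4 members, the 10 genes most like each, the 3 genes of each cell cycle list at 100 CPM in the most cells, Cdkn1a, Btg1 and Btg2. Some genes that this rule names are not reported here. Other cell cycle genes and markers named beside single cells were chosen after their values were seen. The members and lists were chosen with earlier results of these data known. The planned design was for linear values, and since the file held log2 values it was applied after the back-transformation, with no count model. The likeness ranking and the grouping by markers were tested on permuted data with some genes raised, and the group differences were not. Python 3.11.15, scipy 1.17.1 and scikit-learn 1.9.0 were used. Thresholds, scalings, pseudocounts and groupings were varied, and the coding transcript of Tyms alone was added after the data were seen.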

Additional observations from a re-analysis of the deposited data

How the results depend on the processing

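The spread set for counts of cells was their exact interval, and for group differences the SD within the group, or of the other cells where that was 0. For correlations it was 0.2, and for lists of like genes a fixed share kept. These spreads are wide, so that Top2a in group 4, from 3.59 to 0.44 with an SD of 3.86, counts as within. Of 188 alternative values, 153 stayed within the spread set for them, 34 moved beyond it and 1, the correlation of Tyms with Rn45s, turned round. Counting small values too, 4 changed sign: that one, Tyms in group 4 (below), Pcna in group 2 (-1.50 with average linkage) and the correlation of Pcna with Tyms (-0.0245 without the hepatocyte-like cells). Counting any value above 0 in place of 1 CPM gave 21 cells for Mki67, 17 for Top2a, 33 for Pcna, 33 with at least 2 of the genes, 19 with at least 3, 17 with Mki67 and Top2a and 29 with Pcna and Tyms, and it includes values of 1 read. At 10 CPM Tyms was in 27 cells. At 100 CPM Pcna was in 11, Tyms in 10, at least 2 genes in 7 and Pcna with Tyms in 5. Cells with 3 or more listed genes at 10 CPM numbered 10 for the replication fork, 15 for mitosis, 27 for chromosome structure, 16 for G1 and S control and 32 for arrest. Of 64 group differences 7 moved, 7 lost a size of 2, as given with the groups, and 3 gained it (Tyms in group 4 at 2.49 with a pseudocount of 0.1 and 2.04 after rescaling, Top2a in the hepatocyte-like cells at -2.58 with 0.1). The Top2a difference of the cholangiocyte-like cells was -3.95 with a pseudocount of 0.1, -1.62 with 10 and -1.71 with average linkage. That of Tyms in the hepatocyte-like cells was -7.42 and -2.75 with the same pseudocounts. With average linkage that of group 4 was 0.81 for Mki67 and -1.07 for Tyms. Of the 10 genes most like each, rank correlation kept 3 for Mki67, 3 for Top2a, 2 for Pcna and 3 for Tyms. A pseudocount of 0.1 kept 5 for Pcna and 4 for Tyms, and 10 kept 6 and 4. Without the hepatocyte-like cells 4 stayed for Tyms, and its correlation with Lars2 was 0.00637 and that with Rn45s -0.0741. The cause of these shifts was not tested. Rescaling each cell to 1000000 moved none of the counts past its interval. No paired analysis was possible because all cells form 1 group. Depth limits the zeros, since 1 CPM stood for 3.67 reads in the shallowest cell.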
